A study of Mus musculus with 8 samples.

Results

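The genes described here are 42 listed genes of skeletal muscle: myosins, actins, troponins and other sarcomere proteins, calcium handling proteins, acetylcholine receptor subunits and muscle enzymes. They were taken from a fixed list of symbols and not chosen by their values. On the array, 69 probe sets carried exactly 1 of these symbols, and each gene was represented by the probe set with the highest mean over all arrays. They stand among 18193 genes with such a probe set and 45037 probe sets in all. The samples were palatal shelves, the embryonic folds that meet and fuse to form the palate, dissected from mouse littermates of a C57BL/6 and SV129 cross at embryonic day 14.5. There were 4 samples of genotype R26Pax3/Pax3 (replicates 1, 3, 4 and 7) and 4 of wild type (replicates 2, 6, 8 and 11). R26 is the Rosa26 locus, commonly used to express inserted sequences, and Pax3 is a transcription factor of neural crest and muscle precursors. No driver line is named in the labels, nor the cells that expressed the allele, nor whether a sample was 1 embryo or several. P-values therefore measure the spread between these samples.

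Striated muscle contracts when myosin in thick filaments pulls on actin in thin filaments, within repeating units called sarcomeres. Calcium released from the sarcoplasmic reticulum binds troponin on the thin filament and allows this pull, and pumps then return the calcium to its store. Developing muscle first makes embryonic and perinatal isoforms of these proteins and later replaces many of them with adult fast or slow isoforms. The soft palate holds skeletal muscles formed by migrating myoblasts, and myoblasts also populate the neighbouring tongue and jaw.

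The values are linear MAS5 signals, and fits used log2(signal + 16). The mean signal after trimming the lowest and highest 2% was 150.0 on every array, array medians lay between 43.5 and 44.9, and correlations between arrays lay between 0.9745 and 0.9822. Markers of palatal mesenchyme were present, with all 9 listed genes above the filter. Their summed signal was 7083 to 7773 in R26Pax3/Pax3 and 6865 to 7400 in wild type. Of the muscle genes, 35 passed the filter on low signal (a mean above the 40th percentile, a signal of 25.4) and 7 did not. These 7 were Cacna1s, Chrng, Ckm, Myh1, Myh2, Myh4 and Myl2. On all 8 arrays, 12 genes were above the array median and 7 were below it. The 7 below it were those that did not pass the filter, but with Myl3 in place of Myl2. No background level was estimated here, so a signal below the array median was not told apart from background.

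No muscle gene passed the test between genotypes. In the limma fit over 27021 probe sets, 0 of the 35 tested muscle genes reached an adjusted p under 0.05, where 0.0148% of all probe sets did, and their lowest adjusted p was 0.9997. An unadjusted p under 0.05 was reached by 1 of them, against 4.86% of all probe sets. Without R26Pax3/Pax3 replicate 4, 6 of them reached it, against 3.87% of all probe sets. Mean signals on the log2 scale were lower in R26Pax3/Pax3 for 33 of the 35 and for 38 of all 42, where 49.7% of probe sets were lower. The median difference was -0.40 over the 35 and -0.31 over the 42, against 0.00 for all probe sets tested (0.0009). These genes moved together over the arrays, so their directions are not separate readings. The groups overlapped for every one of the 42, while 2.73% of all probe sets had groups that did not.

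**Figure D1:**
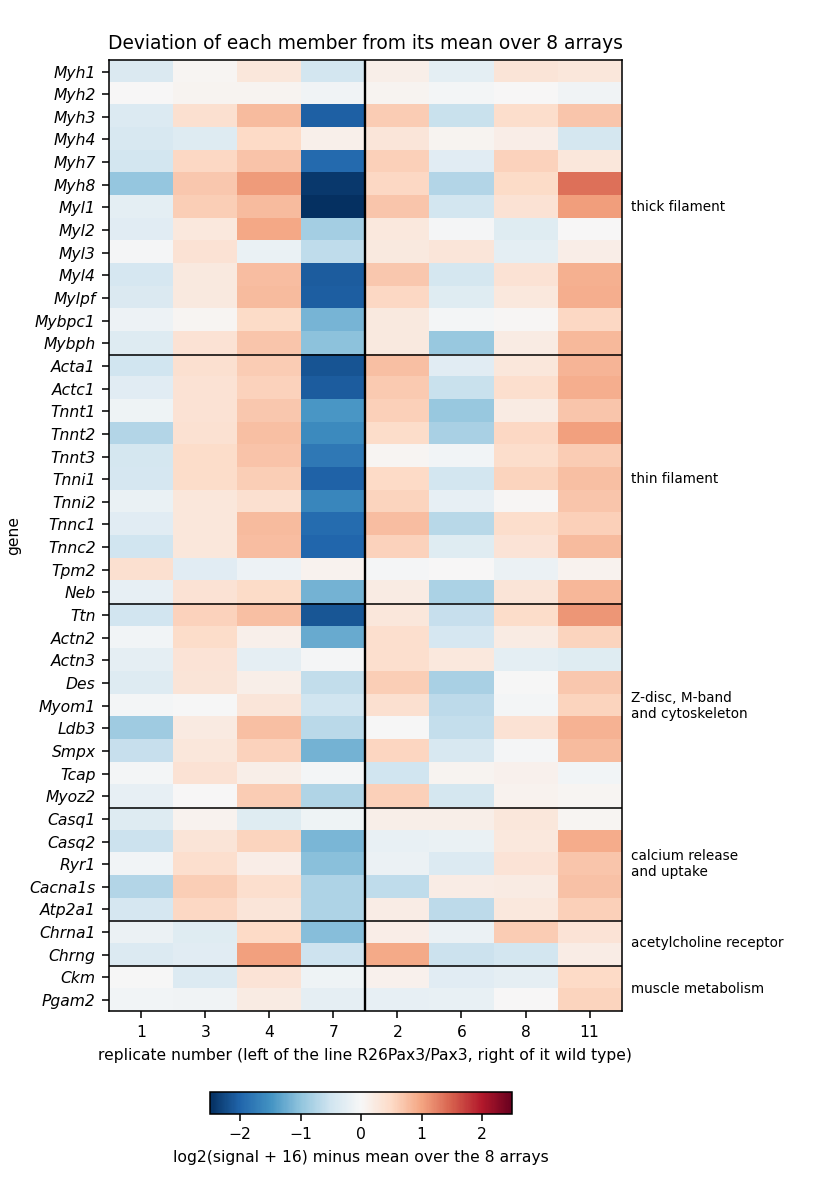
Heat map of the 42 muscle genes (rows, grouped by role) on the 8 arrays (columns, R26Pax3/Pax3 left of the line and wild type right of it). Colour is the gene's log2(signal + 16) minus its mean over the 8 arrays. Replicate 7 of R26Pax3/Pax3 is the lowest array for 32 of the 42 genes, and blue cells also collect in R26Pax3/Pax3 replicate 1 and wild type replicate 6.

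The heat map of muscle genes by array shows wide differences inside each genotype, while the lowest and highest arrays belonged to different genotypes. The mean of log2(signal + 16) over the 42 genes was 6.49, 7.05, 7.29 and 5.66 in R26Pax3/Pax3 replicates 1, 3, 4 and 7. It was 7.12, 6.46, 7.00 and 7.35 in wild type replicates 2, 6, 8 and 11. Replicate 7 of R26Pax3/Pax3 was lowest, wild type replicate 6 and R26Pax3/Pax3 replicate 1 were next and nearly equal, and the groups overlapped. The difference between the genotype means was -0.36 and shrank to -0.04 without R26Pax3/Pax3 replicate 7. It was -0.21 without both that replicate and wild type replicate 6, and -0.585 without R26Pax3/Pax3 replicate 4. In bulk tissue, fewer muscle cells and less RNA per muscle cell cannot be told apart.

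Upstream sequences are shown for genes that the patterns below turn on, each giving the 250 bases before the gene's start in RefSeq on GRCm38.p6, read 5′ to 3′ on the gene's strand. Capitals mark 3 motifs on either strand: the E-box CANNTG, bound by MyoD family proteins, the MEF2 site, and the CArG box, bound by serum response factor. Acta1 (chr8:123894776-123895025, minus strand), Actc1 (chr2:114052876-114053125, minus), Myl1 (chr1:66945057-66945306, minus) and Ttn (chr2:76982548-76982797, minus) followed the mean of the muscle genes closely. Tpm2 (chr4:43523555-43523804, minus) did not follow it. Myh8 (chr11:67276874-67277123, plus) and Myh4 (chr11:67237562-67237811, plus) are adjacent myosin genes, with signals up to 304.0 in Myh8 and up to 16.5 in Myh4.
Acta1: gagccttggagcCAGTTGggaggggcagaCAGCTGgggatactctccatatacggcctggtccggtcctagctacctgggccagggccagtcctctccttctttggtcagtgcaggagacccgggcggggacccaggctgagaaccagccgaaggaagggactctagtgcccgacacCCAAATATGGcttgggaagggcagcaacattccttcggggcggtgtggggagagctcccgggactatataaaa
Actc1: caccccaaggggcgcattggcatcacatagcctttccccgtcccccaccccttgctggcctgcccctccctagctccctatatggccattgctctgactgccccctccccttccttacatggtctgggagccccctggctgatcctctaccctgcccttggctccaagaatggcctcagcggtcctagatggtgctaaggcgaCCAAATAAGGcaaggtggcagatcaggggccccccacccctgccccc
Myl1: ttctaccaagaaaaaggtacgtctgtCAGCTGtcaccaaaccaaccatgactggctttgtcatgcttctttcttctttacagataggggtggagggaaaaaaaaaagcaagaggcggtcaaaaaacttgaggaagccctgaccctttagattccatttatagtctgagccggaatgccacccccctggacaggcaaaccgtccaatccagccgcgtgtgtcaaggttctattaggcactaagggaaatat
Ttn: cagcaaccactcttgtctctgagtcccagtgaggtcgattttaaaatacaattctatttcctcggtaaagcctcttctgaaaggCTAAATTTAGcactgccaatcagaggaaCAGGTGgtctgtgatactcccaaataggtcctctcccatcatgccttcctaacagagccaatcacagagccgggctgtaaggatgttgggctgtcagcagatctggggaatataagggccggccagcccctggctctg
Tpm2: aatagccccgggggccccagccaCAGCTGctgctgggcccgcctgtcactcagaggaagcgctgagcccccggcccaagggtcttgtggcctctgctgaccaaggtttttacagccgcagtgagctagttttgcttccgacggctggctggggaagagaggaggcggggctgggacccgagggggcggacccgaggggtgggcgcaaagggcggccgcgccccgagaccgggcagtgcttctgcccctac
Myh8: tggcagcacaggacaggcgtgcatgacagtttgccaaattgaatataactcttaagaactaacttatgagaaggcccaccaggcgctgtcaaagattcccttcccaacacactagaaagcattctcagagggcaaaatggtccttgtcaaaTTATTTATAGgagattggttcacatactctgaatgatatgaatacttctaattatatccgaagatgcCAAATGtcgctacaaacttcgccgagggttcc
Myh4: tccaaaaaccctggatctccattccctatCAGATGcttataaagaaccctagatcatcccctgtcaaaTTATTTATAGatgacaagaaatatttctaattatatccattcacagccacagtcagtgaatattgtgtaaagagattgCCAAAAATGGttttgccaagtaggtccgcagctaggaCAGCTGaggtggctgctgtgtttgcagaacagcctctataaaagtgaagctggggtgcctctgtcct

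The CArG box of Acta1 spanned -73 to -64 relative to the start and read CCAAATATGG, and that of Actc1 spanned -47 to -38 and read CCAAATAAGG. Both lay close to the start. The MEF2 site of Ttn, CTAAATTTAG, spanned -166 to -157. The MEF2 site read TTATTTATAG in Myh8, Myh4 and Myh1, at -99 to -90 in Myh8. It was thus the same 10 letters in a gene below the array median on 1 array and in neighbours below it on all 8. In each of these 3 genes a match of TATAAA on the reverse strand lay inside the MEF2 site. Tpm2 held a single E-box, at -227 to -222, and no MEF2 site or CArG box.

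Of the 42 genes, 37 had an entry in the promoter table, and Actn3, Neb, Tcap, Tnni2 and Tnnt3 did not. The E-box CANNTG lay in 81.1% of the 37 and in 66.0% of the windows of all 27025 genes in the table. Its form CAGCTG, which is counted in both, lay in 18 of the 37 (48.6%), against 12.8% of all windows. The MEF2 site lay in 7 (18.9%, against 3.01%) and the CArG box in 6 (16.2%, against 1.4%). CATTCC, the motif of TEAD factors, lay in 27.0% against 12.6%, and TATAAA in 21.6% against 13.0%. Among the 21 genes with an entry whose correlation with the other muscle genes was above 0.9, the share with CAGCTG was 38.1%, with a MEF2 site 19.0% and with a CArG box 9.52%. These matches are descriptions of letters in a fixed window, and they say nothing about binding in the shelf.

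Thick filament genes include the myosin heavy chains, which are the motors, the light chains that stiffen and tune them, and the myosin binding proteins Mybpc1 and Mybph. Of these 13 genes, 11 were lower in R26Pax3/Pax3 and 9 passed the filter, and the mean difference was -0.40. Myh3, embryonic myosin heavy chain, had signals of 526.6, 894.1, 1179.3 and 153.0 in R26Pax3/Pax3 replicates 1, 3, 4 and 7, against 1060.7, 452.7, 919.3 and 1101.1 in wild type replicates 2, 6, 8 and 11. Replicate 4 of R26Pax3/Pax3 was the highest of all 8 and replicate 7 the lowest, so the wild type values lay inside the R26Pax3/Pax3 range. Its log2 difference was -0.60 (SE 0.50, limma adjusted p = 0.9997).

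Myl4, the atrial and embryonic light chain, had the smallest p of the thick filament genes. It read 209.1, 339.7, 500.2 and 55.2 in R26Pax3/Pax3 and 467.2, 206.9, 370.4 and 545.9 in wild type, in the same order of replicates. Its log2 difference was -0.75 (SE 0.49, limma adjusted p = 0.9997). The fast light chain Myl1 had the largest difference of the 35, -0.83 (SE 0.64), and it rests on a single array. Its signal was 65.9 in R26Pax3/Pax3 replicate 7 and 472.0 to 987.2 in the other R26Pax3/Pax3 arrays, against 407.4 to 1182.3 in wild type. The regulatory light chain Mylpf ranged from 107.5 to 866.1 in R26Pax3/Pax3 and from 398.4 to 944.8 in wild type.

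Perinatal myosin Myh8 and the light chain Myl1 spread widely among R26Pax3/Pax3 arrays, with an SD of log2(signal + 16) of 1.60 for Myh8 and 1.67 for Myl1. Myh8 read 46.6, 180.8, 241.9 and 7.1 in R26Pax3/Pax3, against 158.9, 58.0, 155.5 and 304.0 in wild type. The value of 7.1, in R26Pax3/Pax3 replicate 7, is below the array median, and the groups overlapped. Slow myosin Myh7 read 71.5, 155.4, 182.0 and 15.3 in R26Pax3/Pax3, against 164.6, 82.7, 161.9 and 130.5 in wild type. The adult fast myosins Myh1, Myh2 and Myh4 were below the array median on all 8 arrays, with no signal above 16.5. The genes Myh3, Myh2, Myh1, Myh4 and Myh8 follow each other in this order on chromosome 11 with 0 protein-coding genes between neighbours. Of the 2 genes at the ends of this row, Myh3 was above the array median on all 8 arrays and Myh8 was below it on 1. The 3 between them did not exceed the array median on any array.

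Mybpc1, slow myosin binding protein C, ranged from 16.9 to 86.2 in R26Pax3/Pax3 and from 55.1 to 88.7 in wild type. Mybph, myosin binding protein H, ranged from 26.3 to 123.3 in R26Pax3/Pax3 and from 28.7 to 136.3 in wild type, and its sign turned without R26Pax3/Pax3 replicate 7 (0.16). The slow light chains Myl2 and Myl3 were dim. Myl2 read 2.5 to 49.2 in R26Pax3/Pax3 and 11.1 to 24.1 in wild type. Myl3 read 14.1 to 43.8 in R26Pax3/Pax3 and 23.3 to 41.1 in wild type.

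**Figure D2:**
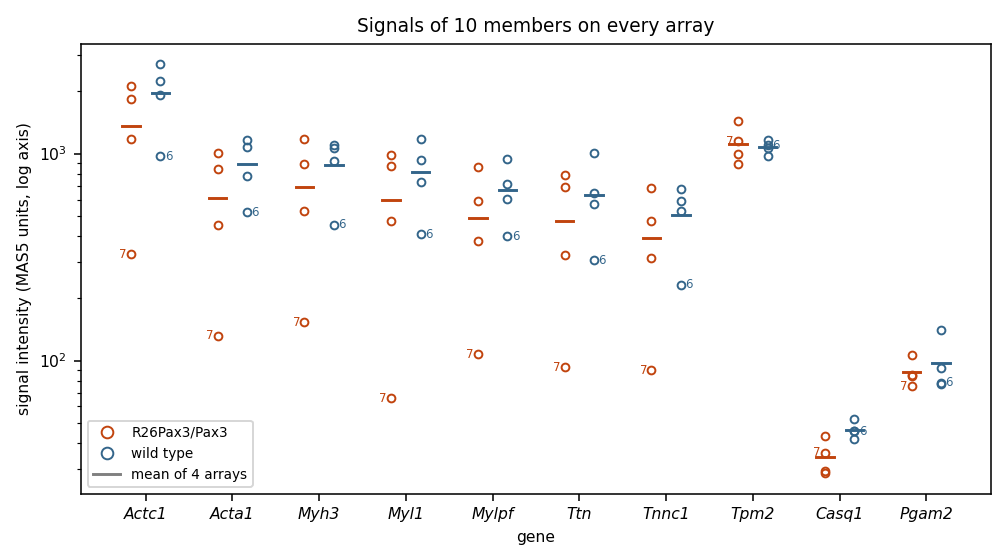
Signal intensity (log axis) of 10 muscle genes on every array, with R26Pax3/Pax3 left of wild type for each gene. Circles are single arrays, bars are the mean of 4 arrays, and the small numbers mark R26Pax3/Pax3 replicate 7 and wild type replicate 6. For the first 7 genes these 2 arrays are the lowest of their genotype, while Tpm2 and Casq1 do not show this order.

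Thin filament genes include the actins, the calcium-binding troponin C, the inhibitory troponin I, the tropomyosin-anchoring troponin T, tropomyosin itself and nebulin. All 11 passed the filter, 10 were lower in R26Pax3/Pax3, and the mean difference was -0.52. Actc1, the actin of heart and of embryonic skeletal muscle, read 1173.5, 1826.7, 2123.7 and 326.6 in R26Pax3/Pax3 replicates 1, 3, 4 and 7. It read 2242.5, 969.6, 1919.2 and 2701.7 in wild type replicates 2, 6, 8 and 11. Acta1, the skeletal actin, had the smallest p of the thin filament genes. Its signals were 450.5, 845.1, 1003.2 and 131.6 in R26Pax3/Pax3, against 1081.5, 521.7, 783.0 and 1168.1 in wild type. For both actins, R26Pax3/Pax3 replicates 3 and 4 lay among the wild type values and R26Pax3/Pax3 replicate 7 lay far below them. The log2 difference was -0.72 (SE 0.49) for Actc1 and -0.80 (SE 0.49) for Acta1, both with a limma adjusted p of 0.9997.

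The 7 troponin genes shared their lowest array, R26Pax3/Pax3 replicate 7, while the order of the other arrays varied. Tnnc1, the slow and cardiac troponin C, ranged from 89.9 to 678.5 in R26Pax3/Pax3 and from 233.0 to 673.0 in wild type. Its fast counterpart Tnnc2 ranged from 40.2 to 366.5 in R26Pax3/Pax3 and from 165.1 to 369.7 in wild type. In both, the lowest R26Pax3/Pax3 array was well below the lowest wild type array, while the highest values were close. Slow troponin I, Tnni1, ranged from 34.1 to 296.4 in R26Pax3/Pax3 and from 132.9 to 326.7 in wild type, and fast Tnni2 from 11.0 to 94.5 in R26Pax3/Pax3 and from 56.6 to 119.1 in wild type. For both, only R26Pax3/Pax3 replicate 7 lay outside the wild type range. Among the troponin T genes, slow Tnnt1 ranged from 61.8 to 322.4 in R26Pax3/Pax3 and from 95.2 to 330.1 in wild type. Cardiac and embryonic Tnnt2 ranged from 31.4 to 225.8 in R26Pax3/Pax3 and from 66.3 to 277.8 in wild type. Fast Tnnt3 ranged from 0.9, below the array median, to 79.7 in R26Pax3/Pax3 and from 39.5 to 73.8 in wild type. The highest array was R26Pax3/Pax3 replicate 4 for Tnnc1 and Tnnt3 and wild type replicate 11 for the other 5. Nebulin (Neb), which spans the thin filament, ranged from 29.9 to 129.0 in R26Pax3/Pax3 and from 44.7 to 169.0 in wild type.

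Tpm2, beta-tropomyosin, was the exception, and it was singled out after its values were seen. It lies along actin in muscle and is also made in smooth muscle and fibroblasts. Its signals were 1430.8, 896.0, 993.2 and 1148.5 in R26Pax3/Pax3, against 1070.4, 1095.6, 977.8 and 1159.1 in wild type. Replicate 1 of R26Pax3/Pax3 was the highest array and replicate 3 the lowest, so the order was unlike that of the actins. Its correlation with the other muscle genes was -0.42 over the 8 arrays, and its log2 difference was 0.03 (SE 0.13, limma adjusted p = 0.9997). A further 3 probe sets of Tpm2 had correlations of 0.54, 0.46 and -0.09 with the other muscle genes.

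Genes of the Z-disc, the M-band and the cytoskeleton hold the filaments in register. Of 9 such genes, all passed the filter, and 8 had lower means in R26Pax3/Pax3. The mean difference was -0.24. Titin (Ttn), the giant spring that runs from Z-disc to M-band, read 323.8, 691.6, 789.1 and 92.6 in R26Pax3/Pax3, against 567.8, 304.5, 642.3 and 1012.3 in wild type. Smpx, a small costamere protein, had the smallest p of these genes and read 36.3, 78.9, 101.0 and 18.5 in R26Pax3/Pax3, against 97.0, 43.0, 60.4 and 118.9 in wild type. Both had their lowest value in R26Pax3/Pax3 replicate 7 and their highest in wild type replicate 11. The log2 difference was -0.65 (SE 0.54) for Ttn and -0.44 (SE 0.36) for Smpx, both with a limma adjusted p of 0.9997.

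Muscle alpha-actinin Actn2, which crosslinks actin at the Z-disc, ranged from 40.4 to 170.6 in R26Pax3/Pax3 and from 85.1 to 183.4 in wild type. For desmin (Des), the muscle intermediate filament, and for Myom1, myomesin of the M-band, the lowest array was wild type replicate 6 and not R26Pax3/Pax3 replicate 7. Des read 33.1 and 27.0 on R26Pax3/Pax3 replicate 7 and wild type replicate 6, and Myom1 read 56.2 and 48.5. Ldb3, a Z-disc PDZ and LIM protein, was lowest in R26Pax3/Pax3 replicate 1 at 20.2 and reached 106.1 in wild type replicate 11. Myoz2, a calcineurin-binding Z-disc protein, ranged from 19.3 to 76.5 in R26Pax3/Pax3 and from 28.1 to 73.6 in wild type. Fast alpha-actinin Actn3 and the titin cap Tcap did not follow the others, with correlations of -0.09 and 0.02. Actn3 read 43.5 to 71.9 in R26Pax3/Pax3 and 39.9 to 76.1 in wild type. Tcap was the other gene higher in R26Pax3/Pax3 among the 35, with 36.7 to 54.1 against 22.6 to 42.7 in wild type (log2 difference 0.20, SE 0.17, limma adjusted p = 0.9997).

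Calcium release and uptake is carried by the voltage sensor Cacna1s, the release channel Ryr1, the calcium stores calsequestrin 1 and 2 (Casq1 and Casq2) and the pump Atp2a1. All 5 had lower means in R26Pax3/Pax3, 4 passed the filter, and the mean difference was -0.28. Casq1, the fast calsequestrin, was the gene with an unadjusted p under 0.05. It read 28.5, 43.1, 29.2 and 35.8 in R26Pax3/Pax3, against 45.7, 45.6, 52.1 and 41.9 in wild type. The groups overlapped by a single pair of arrays, R26Pax3/Pax3 replicate 3 and wild type replicate 11. Its log2 difference was -0.32 (SE 0.15, limma unadjusted p = 0.0488, adjusted p = 0.9997), and 5 of its 8 signals were below the array median. It differed by -0.34 in the first and -0.30 in the last 4 arrays deposited, and its correlation with the other muscle genes was 0.20.

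Casq2, the slow and cardiac calsequestrin, had the highest mean of these genes, with 55.1, 111.8, 133.9 and 30.4 in R26Pax3/Pax3, against 73.9, 74.9, 106.5 and 177.9 in wild type. Unlike Casq1 it followed the other muscle genes, with a correlation of 0.91. Ryr1 ranged from 10.8 to 58.3 in R26Pax3/Pax3 and from 28.0 to 73.5 in wild type, and Atp2a1 from 36.3 to 111.4 in R26Pax3/Pax3 and from 40.4 to 118.6 in wild type. Cacna1s did not exceed 35.1 on any array.

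At the nerve contact, the fetal acetylcholine receptor holds alpha (Chrna1) and gamma (Chrng) subunits. Chrna1 read 45.8, 39.4, 80.5 and 16.8 in R26Pax3/Pax3, against 60.8, 45.5, 90.6 and 70.8 in wild type, with a log2 difference of -0.50 (SE 0.28, limma adjusted p = 0.9997). It was lower within both deposit sets, by -0.47 and -0.54. Chrng was below the array median on all 8 arrays, with 4.8, 5.6, 37.4 and 2.3 in R26Pax3/Pax3 and 34.8, 2.1, 3.1 and 14.1 in wild type. Of the muscle enzymes, phosphoglycerate mutase 2 (Pgam2) read 85.3, 84.3, 106.3 and 75.0 in R26Pax3/Pax3, against 77.1, 78.0, 92.1 and 140.7 in wild type (log2 difference -0.10, SE 0.17, limma adjusted p = 0.9997). Its R26Pax3/Pax3 values lay close together, with the highest 1.42 times the lowest. Muscle creatine kinase (Ckm) was below the array median on all 8 arrays, with signals up to 33.3 in R26Pax3/Pax3 and up to 38.4 in wild type.

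**Figure D3:**
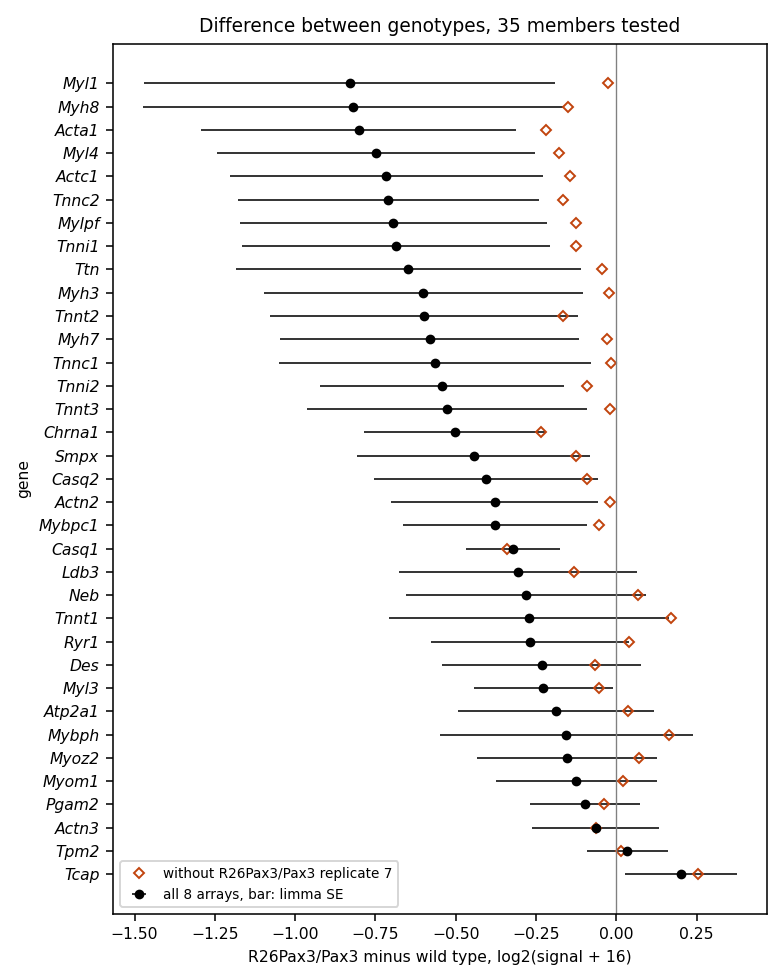
Log2 difference, R26Pax3/Pax3 minus wild type, of the 35 muscle genes tested. Black points with bars are all 8 arrays with limma's SE, and open diamonds leave out R26Pax3/Pax3 replicate 7. Black points lie below 0 for 33 genes, and diamonds for 26.

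The plot of differences by gene shows how far R26Pax3/Pax3 replicate 7 set the genotype differences. Without it, 26 of the 35 genes were lower and the sign of 7 turned. The 7 were Tnnt1, Neb, Mybph, Ryr1, Myom1, Myoz2 and Atp2a1, with log2 differences between 0.02 and 0.17. Casq1 was then at -0.34, Tcap at 0.26, Chrna1 at -0.23 and Acta1 at -0.22. The range among the 4 R26Pax3/Pax3 arrays was larger than the difference between genotypes for 42 of 42 genes, and the range among wild type arrays for 41. A range over single arrays is usually wider than a difference between means, and the share over all probe sets was not computed. These counts therefore do not set the muscle genes apart.

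Differences within a genotype were larger than those of most probe sets. The median SD of log2(signal + 16) over the 42 genes was 0.76 among R26Pax3/Pax3 arrays and 0.51 among wild type arrays. Over all probe sets tested it was 0.17 among R26Pax3/Pax3 arrays and 0.18 among wild type arrays. The SD lay above the 95th percentile of all probe sets (0.43 in R26Pax3/Pax3 and 0.44 in wild type) for 30 genes among R26Pax3/Pax3 arrays and 24 among wild type arrays. The SD was larger among R26Pax3/Pax3 arrays for 36 of the 42, against 45.75% of all probe sets, and this difference in spread was not tested. Without R26Pax3/Pax3 replicate 7 the median SD in that genotype was 0.49, and without wild type replicate 6 it was 0.31 in wild type.

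Wild type replicate 11 was the highest array for 26 of the 42 genes and R26Pax3/Pax3 replicate 4 for 9. Within genotypes, replicate 7 was the lowest R26Pax3/Pax3 array for 36 genes and replicate 6 the lowest wild type array for 31. Replicates 1 and 7 of R26Pax3/Pax3 and 6 of wild type were the 3 lowest arrays for 26 of the 42 genes, against 2.735% of all probe sets tested. Replicate 7 of R26Pax3/Pax3 was the lowest array for 11.67% of all probe sets tested.

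The genes moved together over the arrays. The Pearson correlation of a gene with the mean of the other muscle genes had a median of 0.92 over the 8 arrays and was above 0.9 for 24 of the 42. After centring each genotype on its own mean the median was 0.93. It was 0.88 without R26Pax3/Pax3 replicate 7 and wild type replicate 6, the arrays farthest from the median. Without them 18 of the 42 were above 0.9, so the common movement of these genes did not rest on those arrays alone. The share of all probe sets above 0.9 on the remaining arrays was not computed. Between pairs of muscle genes the median correlation was 0.75. The points share 8 arrays and the same RNA, and the correlations are given as a description. Of all probe sets tested, 0.3405% (92) had a correlation above 0.9 with the mean of the muscle genes, and their median was -0.01.

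Genes at the top of this order were Myl4 and Myh8 (0.99 each), followed by Tnnc2, Myh3 and Ttn (0.99 each). Dim genes and a few brighter ones stood at the bottom: Tpm2 (-0.42), Actn3 (-0.09), Myh4 (-0.01), Tcap (0.02), Casq1 (0.20), Ckm (0.45), Myh2 (0.53) and Myl3 (0.56). Of these only Tpm2 was above the array median on every array. Further probe sets of the same gene that passed the filter mostly moved with the chosen one. A second probe set of Ttn had a correlation of 0.98 with the chosen one, and a second probe set of Tnnt2 also had 0.98. Another of Ttn had 0.74. The further probe sets of Tpm2 did not move with the chosen one, with correlations of -0.002, 0.47 and -0.40.

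**Figure D4:**
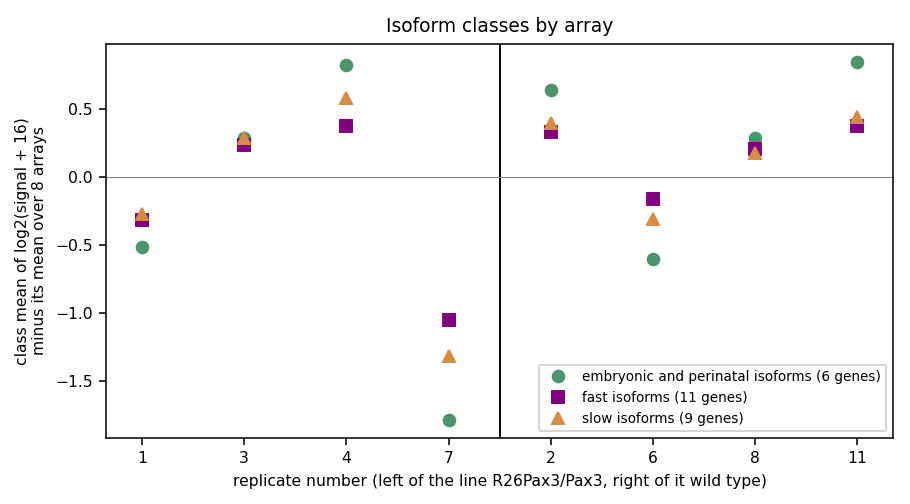
Mean log2(signal + 16) of embryonic and perinatal (6 genes), fast (11 genes) and slow (9 genes) isoforms on each array, minus the mean of that class over the 8 arrays. R26Pax3/Pax3 replicates are left of the line and wild type right of it. All 3 classes are lowest in R26Pax3/Pax3 replicate 7, and the embryonic and perinatal class spreads most.

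Each isoform class had its lowest mean in R26Pax3/Pax3 replicate 7, and the order of the other arrays was nearly the same in every class. Against the embryonic and perinatal class, R26Pax3/Pax3 replicate 1 and wild type replicate 6 changed places in the fast class. In the slow class R26Pax3/Pax3 replicate 4 and wild type replicate 11 did so. The embryonic and perinatal class (Myh3, Myh8, Myl4, Tnnt2, Actc1 and Chrng) averaged 7.32, 8.12, 8.66 and 6.04 in R26Pax3/Pax3 replicates 1, 3, 4 and 7, against 8.48, 7.23, 8.12 and 8.68 in wild type replicates 2, 6, 8 and 11. The fast class averaged 6.05, 6.60, 6.74 and 5.30 in R26Pax3/Pax3, against 6.69, 6.20, 6.56 and 6.74 in wild type. The slow class averaged 6.43, 7.00, 7.29 and 5.38 in R26Pax3/Pax3, against 7.11, 6.40, 6.88 and 7.15 in wild type. In each class the groups overlapped, with R26Pax3/Pax3 replicate 7 lowest of all.

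The difference between genotypes was -0.59 for the embryonic and perinatal class, -0.38 for the fast class and -0.36 for the slow class. Counting only genes that passed the filter gave -0.70 (5 genes), -0.48 (8 genes) and -0.41 (8 genes). Without R26Pax3/Pax3 replicate 7 the values over all genes of each class were -0.09, -0.09 and 0.02. Over genes that passed the filter they were -0.13, -0.10 and -0.02. Replicate 7 of R26Pax3/Pax3 lay below the mean of the other R26Pax3/Pax3 arrays by a difference of -1.99 in the embryonic and perinatal class, -1.15 in the fast and -1.52 in the slow class. The log2(signal + 16) scale compresses dim genes, and the fast class held 3 genes below the filter, where the other classes held 1 each. Whether the classes differ was not tested.

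The order of deposition divides the arrays into a first set (R26Pax3/Pax3 replicates 1 and 3, wild type replicates 6 and 8) and a last set (R26Pax3/Pax3 replicates 4 and 7, wild type replicates 2 and 11). The labels do not call these sets batches. The mean of the muscle genes differed between genotypes by 0.04 in the first set and by -0.76 in the last. Of the 42 genes, 18 were lower in R26Pax3/Pax3 in the first set and 39 in the last. The interaction of genotype and set passed at an adjusted p under 0.05 for 0 of the 35 genes, where 0.0222% of all probe sets did, and the lowest adjusted p was 0.381. An unadjusted p under 0.05 was reached by 3 of them (Actn2, Des and Myom1), against 11.2% of all probe sets. Without R26Pax3/Pax3 replicate 4, 1 gene passed, Myl1 (limma adjusted p = 0.04896), where 0.037% of all probe sets did. In that fit 28 of the 35 reached an unadjusted p under 0.05, against 8.75% of all probe sets. There R26Pax3/Pax3 replicate 7, the lowest array for most of these genes, stands alone for its genotype in the last set. It is assumed to vary like the other groups, which supply the spread.

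Other muscle genes were read from lists, and 0 of their genes were called. Of 9 tested myogenic regulators, transcription factors of the muscle lineage, 5 were lower and 4 higher in R26Pax3/Pax3. Myod1, which commits cells to the muscle lineage, read 59.0, 79.9, 90.0 and 26.2 in R26Pax3/Pax3, against 103.2, 58.7, 93.4 and 107.6 in wild type (log2 difference -0.48, SE 0.26, limma adjusted p = 0.9997). Its lowest arrays, R26Pax3/Pax3 replicate 7, wild type replicate 6 and R26Pax3/Pax3 replicate 1, were also the lowest for the mean of the 42 genes. Six4, a homeobox factor, had the smallest p of the list and a log2 difference of 0.24 (SE 0.09, limma adjusted p = 0.968), and its correlation with the contractile genes was -0.22. Of the 14 regulators measured, only 3 had a correlation above 0.9 with the mean of the 42 genes. They were Myod1, Myog and Msc, at 0.98, 0.96 and 0.91. The median over the 14 was 0.51, with Eya1 at -0.28 and Tbx1 at 0.07.

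Of 8 tested genes of myoblast fusion and membrane, 7 were lower in R26Pax3/Pax3. Mymk and Mymx, the membrane proteins that fuse myoblasts, had log2 differences of -0.62 (SE 0.35) and -0.46 (SE 0.31), both with a limma adjusted p of 0.9997. Of 17 other sarcomere genes, 11 were lower and 6 higher. Nebl, the nebulin relative nebulette, had the smallest p at 0.39 (SE 0.12, limma adjusted p = 0.819), and Unc45b, a myosin chaperone, was at -0.54 (SE 0.32, limma adjusted p = 0.9997). Of 11 other excitation-contraction genes, 9 were lower, with Hrc at -0.38 (SE 0.15, limma adjusted p = 0.995) and Ryr3 at 0.44 (SE 0.18, limma adjusted p = 0.995). Of 4 other metabolic genes, 4 were lower, with Fabp3 at -0.22 (SE 0.12) and Cox6a2 at -0.23 (SE 0.16). Of 4 neuromuscular junction genes, 2 were lower and 2 higher. There Lrp4, the agrin receptor, was at 0.12 (SE 0.12) and acetylcholinesterase (Ache) at -0.22 (SE 0.23). These last 4 genes had a limma adjusted p of 0.9997.

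The mean of each list tracked the contractile genes to a different degree. The correlation with the mean of the 42 genes over the 8 arrays was 0.99 for myoblast fusion and membrane, 0.99 for the other sarcomere genes and 0.94 for myogenic regulators. It was 0.91 for excitation-contraction genes, 0.89 for the neuromuscular junction and 0.70 for metabolism. Single genes followed less closely than these list means. The median correlation of a gene was 0.70 for myoblast fusion and membrane, 0.66 for the other sarcomere genes and 0.51 for myogenic regulators. For excitation-contraction genes it was 0.44, for the neuromuscular junction 0.47 and for metabolism 0.52.

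**Figure D5:**
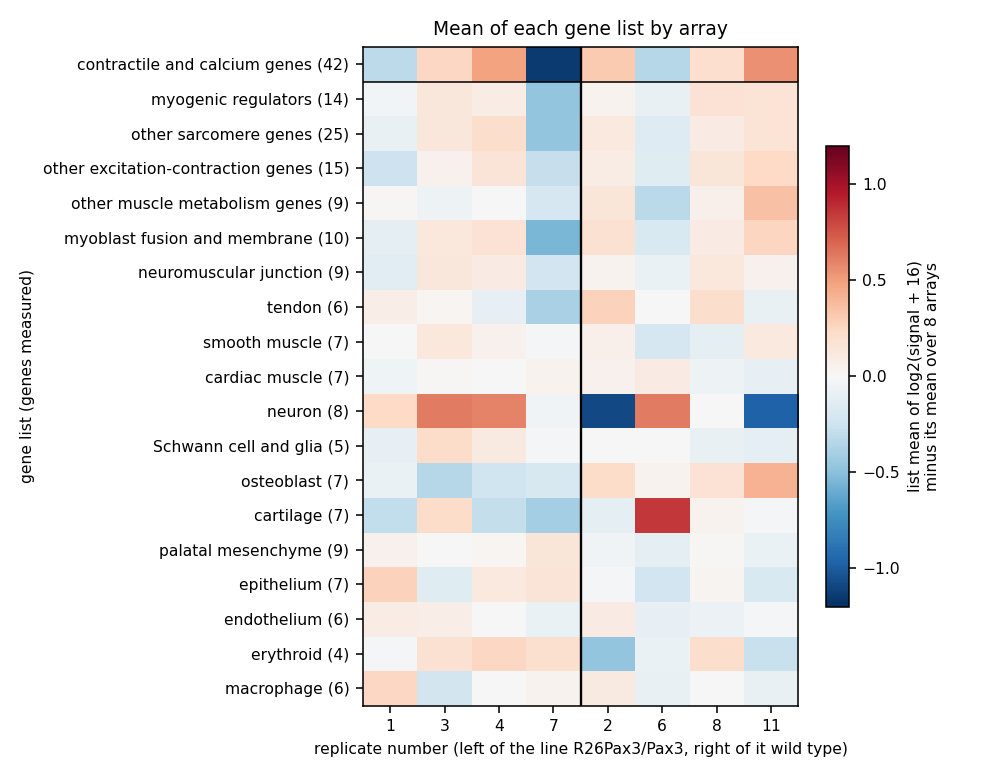
Mean log2(signal + 16) of each gene list on each array, minus its mean over the 8 arrays, for the 42 contractile and calcium genes (top row) and 18 other lists. R26Pax3/Pax3 replicates are left of the line and wild type right of it. The skeletal muscle lists are lowest in R26Pax3/Pax3 replicate 7, except the metabolism list, which is lowest in wild type replicate 6. The neuron list is lowest in wild type replicates 2 and 11.

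Marker lists of other cell types showed other orders of arrays, with 0 genes called in any. Still, the tendon and cartilage lists were also lowest in R26Pax3/Pax3 replicate 7. Smooth muscle Acta2 and endothelial Cdh5 had correlations of 0.89 and 0.82 with the mean of the 42 genes. The median correlation of a gene was 0.29 in the smooth muscle list and 0.10 in the endothelial list. All 7 cardiac markers (Myh6, Nppa, Nppb, Tnni3, Myl7, Nkx2-5 and Ryr2) were below the array median on all 8 arrays, with a summed signal of 93.3 to 111.2 in R26Pax3/Pax3 and 89.3 to 122.5 in wild type. Of the cardiac genes tested, Tnni3 was at -0.23 (SE 0.22) and Ryr2 at 0.04 (SE 0.21), both with a limma adjusted p of 0.9997. The smooth muscle list had a correlation of 0.45 with the 42 genes and a summed signal of 1716 to 2156 in R26Pax3/Pax3 and 1584 to 2251 in wild type. Of its 6 tested genes, 5 were lower in R26Pax3/Pax3 (Acta2, Actg2, Myh11, Mylk and Smtn, between -0.14 and -0.08) and 1 was higher. That gene was transgelin (Tagln), an actin-binding protein of smooth muscle. It read 367.7, 292.7, 270.3 and 280.4 in R26Pax3/Pax3, against 201.0, 107.9, 138.3 and 202.3 in wild type, so every R26Pax3/Pax3 array was above every wild type array. Its log2 difference of 0.87 (SE 0.18) was not called (limma adjusted p = 0.368), and Mylk was at -0.08 (SE 0.09, limma adjusted p = 0.9997).

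The tendon list, whose genes mark the attachments of muscle, had a correlation of 0.57 with the 42 genes. Its summed signal was 794.2 to 952.6 in R26Pax3/Pax3 and 907.2 to 1153 in wild type. Of 5 tested genes 4 were lower, with Mkx at -0.30 (SE 0.11, limma adjusted p = 0.98) and Kera at -0.68 (SE 0.27, limma adjusted p = 0.995). In the neuron list all 8 genes were higher in R26Pax3/Pax3, among them Gap43 at 0.52 (SE 0.19, limma adjusted p = 0.973) and Nefl at 0.74 (SE 0.30, limma adjusted p = 0.995). Its summed signal was 1157 to 1814 in R26Pax3/Pax3 and 555.0 to 1911 in wild type, where replicates 2 and 11 were lowest. Those are also arrays with high contractile signal, and the correlation of the 2 lists was -0.25.

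In the osteoblast list all 7 genes were lower in R26Pax3/Pax3, with Ifitm5 at -0.55 (SE 0.14, limma adjusted p = 0.574) and Phex at -0.70 (SE 0.18, limma adjusted p = 0.603), and the correlation was 0.35. Wild type replicate 6, the wild type array with the lowest contractile mean, had the highest summed signal of the cartilage list, 1841, against 681.3 to 1281 in R26Pax3/Pax3 and 1063 to 1171 in the other wild type arrays. Correlations with the 42 genes were 0.09 for cartilage, -0.59 for palatal mesenchyme, -0.38 for epithelium, 0.40 for endothelium, 0.20 for Schwann cells and glia, -0.27 for erythroid genes and -0.29 for macrophages. In R26Pax3/Pax3 replicate 7 the palatal mesenchyme sum was the highest of all arrays, 7773. What part the makeup of each dissection had in the muscle values was not tested.

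The genes outside the list whose pattern was most like the mean of the 42 were found by Pearson correlation over the 8 arrays among 12304 genes. The 10 highest were Apobec2, Ablim3 and Itgb1bp2 (0.99 each), Sln (0.99), Vgll2, Scrib, Myod1 and Myot (0.98 each), and Mark4 and Prr32 (0.97 each). Apobec2 read 41.8, 67.6, 96.6 and 4.7 in R26Pax3/Pax3, against 67.9, 37.6, 68.8 and 97.7 in wild type. Scrib had a similar order with a narrow spread, 192.4 to 256.8 in R26Pax3/Pax3 and 227.1 to 261.2 in wild type. Correlations above 0.9 were reached by 41 of the 12304 genes, and below -0.9 by 9. The lowest were Rev1, Thumpd1 and Col8a1 (-0.94 each), Pik3ap1 (-0.93) and Rttn (-0.93). Col8a1, a short-chain collagen, read 1674.3, 1586.6, 1505.2 and 1906.1 in R26Pax3/Pax3, against 1494.4, 1745.8, 1616.7 and 1375.3 in wild type, highest where the contractile genes were lowest.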

How the data were processed

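RNA of 8 palatal shelf samples, 4 per genotype, was extracted with Trizol, labelled with biotin from 6 µg of total RNA and hybridised to Affymetrix mouse expression arrays, per the labels' protocols. The deposited values are linear signal intensities as the authors' MAS5 step gave them (named in the submitters' processing notes). Its version is not given in the sources used here. In these intensities each array has the same trimmed mean, so a change shared by most genes would not show. Detection calls were not used here.

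The 64 control probe sets were left out. Signals were transformed to log2(signal + 16) without further normalization, and the 27021 probe sets whose mean signal exceeded the 40th percentile were fitted with limma 3.58.1 (R 4.3.3, lmFit, eBayes with trend, Benjamini-Hochberg adjustment). The fit was tested on simulated data. Differences are R26Pax3/Pax3 minus wild type. Differences on this scale understate those of dim genes. The number of arrays limits the precision. The interaction of genotype with deposit order was fitted on the same values.

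All 42 genes are named. Per-array values are given for the gene with the highest mean and the gene with the smallest p of each role, for the 3 isoform classes, and for genes singled out after their values were seen (Myh7, Myh8, Tpm2, Chrng, Chrna1, Myod1, Tagln, Apobec2, Col8a1). Other genes are given by range. Up to 2 genes per other list were named by smallest p, and others, such as Acta2 and Cdh5, after their values were seen. Genes, lists and tests were chosen with earlier results of these data known. Probe sets with several symbols, such as 2 shared by Myh6 and Myh7, were not used. All 42 symbols were also in the RefSeq gene table of GRCm38.p6, which gave names, promoters and gene order. Alternatives were pseudocounts of 1 and 64, quantile normalization, other filters, no trend, array weights, the mean of all probe sets of a gene, deposit set as a block, and leaving out arrays.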

Additional observations from a re-analysis of the deposited data

Results flagged for a closer look

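Among 42 genes in 2 genotypes, 1 group held an array far from the other 3. Chrng, the gamma subunit of the fetal acetylcholine receptor, read 37.4 in R26Pax3/Pax3 replicate 4, against 4.8, 5.6 and 2.3 in the other R26Pax3/Pax3 arrays. The gap was 0.845 of the whole range on the log2(signal + 16) scale, above Dixon's critical value for 4 arrays. In wild type Chrng read 34.8, 2.1, 3.1 and 14.1. All 8 signals were below the array median and the gene did not pass the filter. Chance flags about 1 in 20 groups.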

How the results depend on the processing

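Of the 35 muscle genes tested, limma called 0 between genotypes under every setting tried. The lowest limma adjusted p of a muscle gene was 0.844. On all 8 arrays, 1 gene had an unadjusted p under 0.05 in the main fit. With a pseudocount of 1, other filters or deposit set as a block, 0 genes did. With an array left out the count was 0 to 6 (6 without R26Pax3/Pax3 replicate 4). Of 616 pairs of a gene and a setting, 599 kept the sign of the difference and 17 turned it, all 17 with arrays left out. Other filters, no trend and deposit set as a block cannot change the difference, so their pairs kept the sign by construction. The mean difference of the 42 genes was -0.48 with a pseudocount of 1, -0.25 with 64, -0.36 after quantile normalization, -0.32 with the mean of all probe sets and -0.51 for the 12 genes above every array median. With an array left out in turn it lay between -0.585 (without R26Pax3/Pax3 replicate 4) and -0.04 (without replicate 7), and the slow class lay between -0.61 and 0.02. The median SD in wild type lay between 0.31 (without wild type replicate 6) and 0.62, and the count of genes called for the interaction with deposit order between 0 and 1 (without R26Pax3/Pax3 replicate 4). With an array left out, the log2 difference lay between -0.1904 and 0.0615 for Actn3, -0.4404 and 0.0371 for Atp2a1, -0.4992 and 0.1627 for Mybph, -0.3663 and 0.0402 for Myom1, -0.3917 and 0.0715 for Myoz2, -0.5887 and 0.0679 for Neb, -0.1797 and 0.071 for Pgam2, -0.4521 and 0.0383 for Ryr1, -0.6306 and 0.1687 for Tnnt1, and -0.0907 and 0.1313 for Tpm2. Without both R26Pax3/Pax3 replicate 7 and wild type replicate 6, an alternative chosen after seeing the data, Myl3 turned to 0.0048 and Actn3 to 0.0165. No paired analysis was possible because the labels do not give the litter of each sample and the genotypes share no replicate numbers. Likeness within a litter was therefore not modelled. Signals below the array median were not told apart from background, which limits the 7 genes that stayed there on all 8 arrays, Myl3 among them.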
